A study of Mus musculus with 8 samples.

Results

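The response of CNOT6/6L knockout (KO) ovarian granulosa cells to PMSG was described across the transcriptome. The members were all genes with an FPKM (fragments mapped, scaled to transcript length and library size) of at least 1 in at least 2 of the 4 KO libraries, which were 13138 of the 23235 genes in the table. Of these, 11589 reached that level in all 4 KO libraries, 805 in 3 and 744 in 2, and 1035 genes reached it in 1 library and lay just outside. The libraries were 4 of the 8 in the series: 2 of KO cells without treatment (0 h) and 2 of KO cells taken 44 h after PMSG. The other 4 libraries were of wild-type (WT) cells, 2 at 0 h and 2 at 44 h after PMSG. All labels gave female C57BL/6 mice and total RNA of granulosa cells. They gave no age, no PMSG dose, no deleted exons or driver of the knockout, and nothing on whether replicates are different animals. The p-values therefore rest on the spread of library pairs that could be technical repeats.

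Granulosa cells are the somatic cells that surround the oocyte and support its growth. PMSG (pregnant mare serum gonadotropin) is a gonadotropin with the activity of follicle-stimulating hormone (FSH), given to immature mice so that a cohort of follicles grows to the preovulatory stage. FSH acts through its receptor, cyclic AMP and protein kinase A, and growing granulosa cells make estradiol, inhibin and activin and acquire the receptor for luteinizing hormone (LH). CNOT6 and CNOT6L are deadenylases of the CCR4-NOT complex, which shortens the poly(A) tails of mRNAs as a step towards their decay. The series title sets the study around this decay and gonadotropin-driven growth of follicles.

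The 2 KO libraries at 44 h lay far apart, so each is given on its own beside the pair. At least 2-fold on the log2(FPKM + 1) scale separated them at 1334 genes (10.2%), against 400 genes (3.04%) for the pair of KO libraries at 0 h, 275 for WT at 0 h and 287 for WT at 44 h. The summed FPKM of the 8 libraries ranged from 675557 to 753216 and their relative depth from 0.904 to 1.255, with the highest depth in KO 44 h replicate 2. The 12 granulosa markers summed to 11776 and 11608 FPKM in the KO libraries at 0 h and to 25612 and 18950 at 44 h, where Inha made up most of the sum. Markers of other cells also differed between libraries. Oocyte markers summed to 10122 and 8734 FPKM at 0 h and to 4875 and 2908 at 44 h, leukocyte markers were highest in KO 0 h replicate 1, and markers of the ovarian surface and oviduct were highest among the KO libraries in KO 44 h replicate 2; their values stand with the results they touch. In such bulk samples, fewer cells of a type and less RNA per cell cannot be told apart.

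The targeted genes were measured over the whole gene, and the labels do not give the deleted part, so their level does not check the knockout. Cnot6 was 11.7 and 12 FPKM in the KO libraries at 0 h and 26.7 and 17.4 at 44 h, against 29.1 and 18.4 in WT at 0 h and 26 and 26.9 in WT at 44 h. The library labelled KO 44 h replicate 1 was thus within the WT range for Cnot6. Cnot6l was 4.69 and 1.97 FPKM in KO at 0 h and 2.01 and 1.61 at 44 h, with overlap of the groups, and 6.11, 7.07, 4.20 and 2.63 in the WT libraries. The change from 0 h to 44 h in KO was 0.81 (log2, SE 0.27, limma adjusted p = 0.148) for Cnot6 and -0.56 (SE 0.34, adjusted p = 0.378) for Cnot6l.

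The number of genes that passed the test depended on which KO library was read. Over both KO 44 h libraries, 27 of 13138 genes (0.206%) differed from 0 h at a limma Benjamini-Hochberg adjusted p under 0.05, 13 (0.0989%) higher and 14 (0.107%) lower. With 44 h replicate 1 alone the number was 44 (0.335%), 23 (0.175%) higher and 21 (0.16%) lower. With 44 h replicate 2 alone it was 1263 (9.61%), 576 (4.38%) higher and 687 (5.23%) lower. In the fits of 1 KO library, that library is assumed to vary like the other groups, and the wide gap between the 2 KO libraries does not enter the spread. Another scaling moved the balance of directions: over both libraries it was 16 higher and 9 lower after quantile normalization and 22 and 15 after median-of-ratios scaling, for replicate 1 it was 43 and 25 or 63 and 40, and for replicate 2 it was 813 and 777 or 741 and 540. The median change of all genes tested was -0.12 over both libraries, -0.18 in replicate 1 and -0.11 in replicate 2, and lay between -0.04 and 0.02 under those scalings. Gene lists are therefore set beside the median of all genes. List members that passed with replicate 2 alone are to be read beside the 4.38% of all genes that rose and the 5.23% that fell there. In WT, with the same filter, 8 genes (0.0609%) passed, 5 (0.0381%) higher and 3 (0.0228%) lower. The WT number came from the fit of all 8 libraries, where the gap between the KO 44 h libraries entered the shared spread. It is therefore not comparable with the numbers from the fits of 1 KO library. At an unadjusted p under 0.05 the numbers were 2902, 2934, 3752 and 3186 in the same order.

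These counts moved when a library was left out. The 27 became 7 without KO 0 h replicate 1, 5 without KO 0 h replicate 2, 16 or 14 without a WT 0 h library and 10 without either WT 44 h library. The 44 became 22 without KO 0 h replicate 2, 84 without either WT 0 h library and 13 without either WT 44 h library. The 1263 became 577 without KO 0 h replicate 1, 372 without KO 0 h replicate 2, and 586 or 573 without a WT 44 h library. Of the 27 genes, 4 also passed without KO 0 h replicate 1, 4 without KO 0 h replicate 2 and 4 in a fit of the 4 KO libraries alone, and none changed direction. Single-gene calls in the fits of 1 KO library were also lost. Of 35 genes examined that passed with replicate 1 alone, 15 and 13 also passed without KO 0 h replicate 1 and 2 and 11 without WT 44 h replicate 1 or without replicate 2. Of 125 that passed with replicate 2 alone, 95, 81, 94 and 93 did so in the same 4 settings.

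Counted by fold, KO 44 h replicate 2 also had more genes outside the range of the 0 h libraries. In 44 h replicate 1, 201 genes (1.53%) were at least 2-fold above both KO 0 h libraries and 297 (2.26%) at least 2-fold below both. In replicate 2 these were 597 (4.54%) and 774 (5.89%). With no filter on low values, the genes above were 252 in replicate 1 and 812 in replicate 2, and the numbers below were unchanged. In both 44 h libraries 94 genes (0.715%) were that far above and 138 (1.05%) that far below. After quantile normalization replicate 2 had 705 above and 680 below, and after median-of-ratios scaling 715 and 582. Replicate 1 and the pair also turned to more genes above than below under both scalings. Without any fold, both 44 h libraries lay above both 0 h libraries at 1873 genes (14.3%) and below both at 4587 (34.9%).

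The KO change was then set beside the WT change, which has 0 h libraries of its own. Over the 13138 genes, Pearson's r with the WT change was 0.38 for KO replicate 1 and 0.72 for KO replicate 2, and Spearman's rho was 0.49 and 0.77. Over the 7357 genes with at least 5 FPKM in all 8 libraries, r was 0.50 and 0.85. These are correlations across genes, which are not independent replicates, and all points of an axis share libraries. Of the 197 genes (1.5%) that were at least 2-fold above both 0 h libraries in KO replicate 2 and within 5/4-fold of the 0 h mean, in either direction, in replicate 1, 86.8% were higher at 44 h in both WT libraries, with median WT changes of 1.17 and 1.07 (log2). Of the 60 genes (0.457%) at least 2-fold below in replicate 2 and within 5/4-fold in replicate 1, 85.0% were lower in both WT libraries. The reverse pattern was rarer. It held for 29 genes (0.221%) above in replicate 1 only, of which 75.9% were higher in both WT libraries, and for 45 genes (0.343%) below in replicate 1 only, of which 62.2% were lower in both. Among all genes tested, 27.9% were higher and 51.7% lower in both WT libraries.

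**Figure D1:**
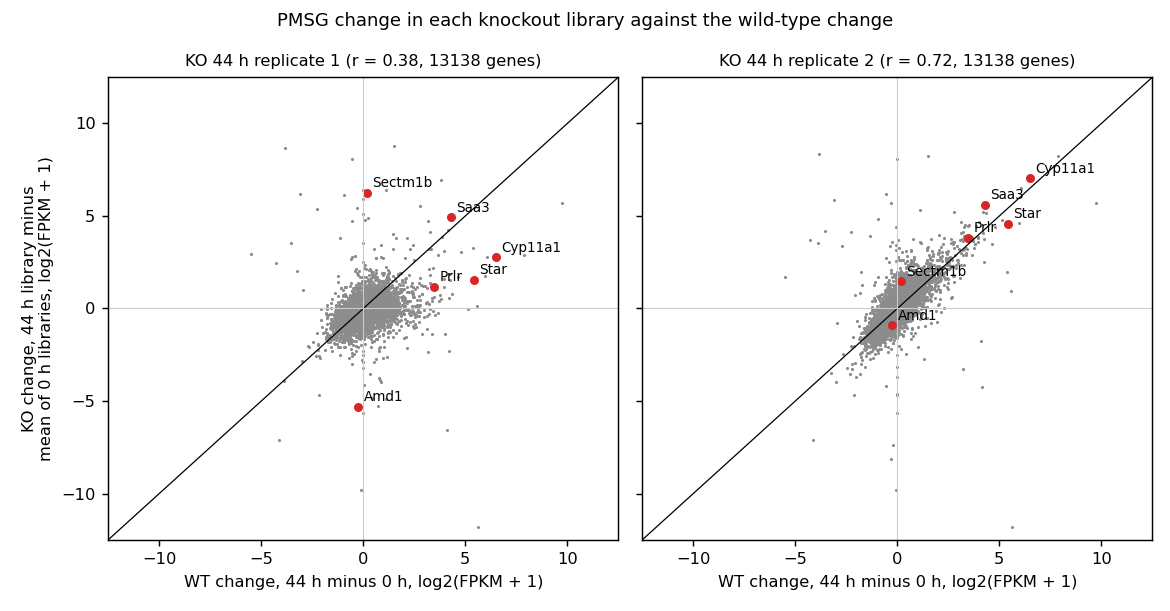
Change in each KO 44 h library (left, replicate 1; right, replicate 2) against the WT change, both as log2(FPKM + 1) at 44 h minus 0 h, with each gene a point and the line of equal change drawn. Points of KO replicate 2 lie closer to the line (r = 0.72) than those of replicate 1 (r = 0.38), and Cyp11a1, Star and Prlr lie well below the line in replicate 1.

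The genes that passed over both KO libraries changed in the same direction in the 2 libraries, for some by unlike amounts. They are not all the genes that did so: 94 were at least 2-fold above and 138 at least 2-fold below both 0 h libraries in both 44 h libraries. The largest rise among genes with an ordinary symbol was that of Saa3, a serum amyloid A protein of the acute phase. Saa3 was 1.21 FPKM and listed at 0 in the KO libraries at 0 h and 44.4 and 71.4 FPKM at 44 h. Both 44 h libraries were far above both 0 h libraries, with a change of 5.27 (log2, SE 0.61, adjusted p = 0.0368). Akr1b7, an aldo-keto reductase of steroid-making cells, was 0.304 and 0.398 FPKM at 0 h and 34.4 and 22.4 at 44 h, a change of 4.41 (SE 0.49, adjusted p = 0.0351). Lcn2, the secreted iron-siderophore binding protein lipocalin 2, was 0.489 FPKM and listed at 0 before PMSG and 6.97 and 17.8 after it. Ren1, which encodes renin, was 0.0651 FPKM in KO 0 h replicate 1, had a listed value of 0 in replicate 2, and was 9.93 and 6.88 FPKM at 44 h. Its change of 3.17 had an SE of 0.22 and the smallest adjusted p of these 8 genes (limma, 0.00330). Defb36, a beta-defensin, was at most 0.315 FPKM at 0 h and 7.51 and 7.45 at 44 h, so that its 2 values at 44 h were nearly equal. The amino acid transporter Slc7a8 was 20.1 and 18.6 FPKM before and 62.8 and 67.6 after PMSG. Tmem45a went from 23.6 and 25.4 to 69.2 and 81.3 FPKM, and Gas7 from 1.91 and 2.28 to 8.27 and 7.97. For these 8 genes the WT libraries at 44 h were also all above those at 0 h, and the difference between the KO and WT changes passed for none of the 8 (limma adjusted p over both libraries, 1.00 for each), which does not show that the changes were equal.

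Among the genes with an ordinary symbol that fell over both libraries, Slc18a2, the vesicular monoamine transporter, changed most. It was 399 and 652 FPKM in KO at 0 h and 85.9 and 42.9 at 44 h. The groups were well apart, and the change was -3.05 (SE 0.38, adjusted p = 0.0386). Nupr1, a stress-induced nuclear protein, was 434 and 525 FPKM at 0 h and 74.6 and 116 at 44 h, a change of -2.35 (SE 0.24, adjusted p = 0.0285). Gadd45b, which acts in stress signalling and growth arrest, was 17.6 and 15.7 FPKM before and 2.24 and 3.17 after PMSG. In WT, Gadd45b was 7.97 and 12.6 FPKM at 0 h and 8.27 and 6.18 at 44 h, where the groups overlapped. The difference between the KO and WT changes of Gadd45b was -2.01 for replicate 1 (adjusted p = 0.116) and -1.65 for replicate 2 (adjusted p = 0.848) and did not pass. Angptl1, an angiopoietin-like secreted protein, was 30.5 and 37.6 FPKM at 0 h and 9.90 and 5.66 at 44 h. Cntf, a neurotrophic cytokine, went from 5.31 and 7.47 to 0.951 and 0.697 FPKM. Cln3, a lysosomal membrane protein, went from 62.9 and 81.9 to 19.9 and 15.1 FPKM. Lims2, an adhesion adaptor, fell from 39.8 and 47.0 to 12.3 and 8.60 FPKM, starting well above the WT level of 8.37 and 10.6. Other genes that fell were P4ha3, Cables1 and Cd200, which kept adjusted p values of 0.0379, 0.0374 and 0.0372. Nlrp5 and Kdm1b, both known from the oocyte, also fell: Nlrp5 was 277 and 268 FPKM at 0 h and 74.1 and 67.1 at 44 h, and Kdm1b 43.9 and 42.4 and then 11.6 and 13.5. The oocyte marker list, of which Nlrp5 is a member, was lower in all 26 tested members at 44 h; the part of this in the change of Kdm1b was not tested.

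**Figure D2:**
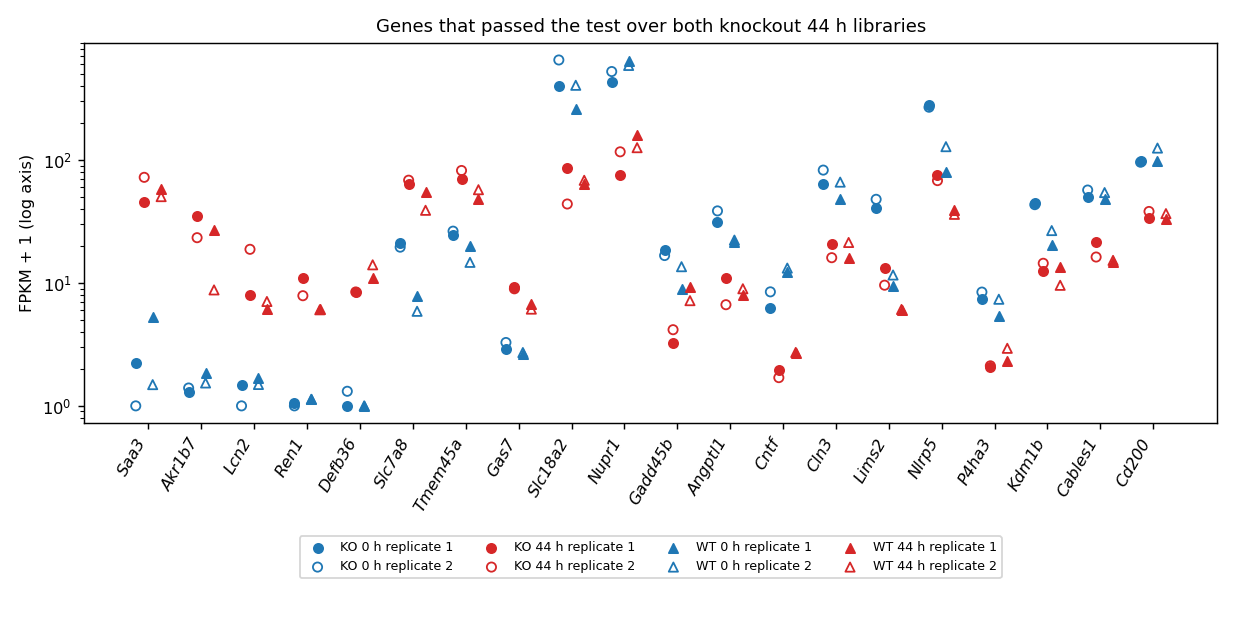
FPKM + 1 on a log axis in each library for the 20 named genes that passed the test over both KO 44 h libraries. Circles are KO and triangles WT, blue is 0 h and red 44 h, and filled and open symbols are replicates 1 and 2; in every gene shown the red circles lie apart from the blue circles.

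A further 7 genes passed over both libraries but are outside the rule for named genes, and are listed for completeness after their values were seen. The clone gene 4930550L24Rik was 1.10 and 0.425 FPKM at 0 h and 15.2 and 38.4 at 44 h, and Chi3l3, a chitinase-like protein of macrophages, was 0.297 and 0.124 and then 3.62 and 5.13. The histone gene Hist2h2ab was 2.1 and 2.2 FPKM at 0 h and listed at 0 in both libraries at 44 h. Mir19b-1, Mir686, Mir763 and Snord35b are short RNA genes, for which FPKM divides few fragments by a short length. Mir19b-1 was listed at 0 in 6 of the 8 libraries and at 84.0 and 269 FPKM in KO at 44 h. Mir763 was 39.8 and 62.4 FPKM in KO at 0 h and listed at 0 in the other 6. Mir686 was 0.0137 and 0.0609 FPKM in KO at 0 h and 457 and 317 at 44 h, and Snord35b was at 0 in the table for KO at 0 h and reached 267 and 71.2 at 44 h, while both were detected in each WT library.

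Receptors that granulosa cells use for gonadotropins and steroids were the next group. Of 14 tested members of the receptor list, 3 rose and 1 fell with KO replicate 2 alone, and none passed over both libraries or with replicate 1 alone (8 and 6 at an unadjusted p under 0.05). Without either KO 0 h library 2 rose. Fshr, the FSH receptor, was 45.4 and 47.7 FPKM in KO at 0 h and 89.6 and 154 at 44 h. Both 44 h libraries were above both 0 h libraries, with a change of 1.32 over both (SE 0.31, adjusted p = 0.0988) and of 1.71 with replicate 2 alone (adjusted p = 0.0195). Lhcgr, the LH receptor, was 2.53 and 1.41 FPKM at 0 h and 18.8 and 261 at 44 h. Both values at 44 h were higher than both at 0 h, and they lay far from each other. The change was 4.62 over both libraries (SE 1.02, adjusted p = 0.0934), 2.76 in replicate 1 (adjusted p = 0.0519) and 6.49 in replicate 2 (adjusted p = 0.00118). Prlr, the prolactin receptor, was 12.2 and 10.9 FPKM at 0 h and 27.1 and 176 at 44 h, and rose by 3.82 in replicate 2 (adjusted p = 0.000594). Esr2, the estrogen receptor of granulosa cells, was 89.9 and 92.3 FPKM at 0 h and 50.1 and 28.3 at 44 h, and passed with replicate 2 alone at -1.65 (adjusted p = 0.00416). The natriuretic peptide receptor Npr2, which keeps the oocyte in meiotic arrest, was 19.1 and 18.5 FPKM before and 34.6 and 27.7 after PMSG, with no overlap and an adjusted p of 0.135 over both libraries. The growth hormone receptor Ghr was 25.3 and 14.0 and then 10.5 and 11.1 FPKM, and did not pass.

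The cAMP and protein kinase A list had 24 tested members, of which 4 rose and 2 fell with KO replicate 2 alone and none passed with replicate 1 alone (2 higher and 3 lower at an unadjusted p under 0.05). The 4 that rose were 2 without KO 0 h replicate 1 and 1 without KO 0 h replicate 2 or either WT 44 h library. Prkar2b, a regulatory subunit of protein kinase A, was 199 and 155 FPKM at 0 h and 381 and 564 at 44 h, a change of 1.40 over both (SE 0.28, adjusted p = 0.0821) and 1.68 in replicate 2 (adjusted p = 0.0199). Pde4b, which breaks down cAMP, was 0.557 and 0.658 FPKM and then 2.32 and 3.50. Both libraries at 44 h were above both at 0 h for these genes. Gem, a small GTPase of the RGK family, was 42 and 25.7 FPKM at 0 h and 12.4 and 6.89 at 44 h and fell with replicate 2 alone (adjusted p = 0.0136). Rapgef4, a cAMP-activated exchange factor, went from 19.7 and 18.1 to 12.2 and 7.57 FPKM and also passed there (adjusted p = 0.0197).

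Of 20 tested members of the steroid synthesis list, 13 had both KO 44 h libraries above both 0 h libraries, against 14.3% of all genes tested. The median difference was larger in replicate 2. With replicate 2 alone 12 rose and none fell (at an unadjusted p under 0.05, 14 and 1). With replicate 1 alone 2 passed, Akr1b7 and Mrap, and over both libraries 1, Akr1b7. The count of 2 was 0 without KO 0 h replicate 1, 1 without KO 0 h replicate 2 or either WT 44 h library, and 4 without either WT 0 h library. The 1 over both libraries was lost without KO 0 h replicate 1, KO 0 h replicate 2 or either WT 0 h library. The median change of the list was 0.95 in replicate 1, 1.74 in replicate 2 and 1.54 in WT, against -0.18, -0.11 and -0.14 for all genes tested. With no filter on low values the count was 4 in place of 12. Star, the carrier of cholesterol to the inner mitochondrial membrane, was 1.94 and 2.64 FPKM in KO at 0 h and 8.61 and 77.7 at 44 h. Both 44 h values were higher, that of replicate 2 by far, and the change was 4.59 with replicate 2 alone (SE 0.51, adjusted p = 0.00602). Cyp11a1, which cleaves the cholesterol side chain, was 24.1 and 13.5 FPKM at 0 h and 129 and 2508 at 44 h. Cyp19a1, the aromatase that makes estradiol, was 11.1 and 13.8 FPKM and then 29.4 and 122. Neither passed with replicate 1 alone (adjusted p = 0.083 for Cyp11a1 and 0.132 for Cyp19a1), and both did with replicate 2 alone (0.00179 and 0.00488). Fdx1, the ferredoxin that passes electrons to mitochondrial P450 enzymes, was 73.4 and 80.2 FPKM at 0 h and 203 and 708 at 44 h. Tspo, an outer mitochondrial membrane protein, was 59.8 and 55.8 FPKM and then 121 and 271. Mrap, the accessory protein of the ACTH receptor, was 28 and 36.7 FPKM and then 108 and 375, and passed in each library alone (adjusted p = 0.0322 and 0.000986).

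Not every steroid gene separated the 2 KO libraries. Nr5a1 (SF-1), a nuclear receptor that drives steroid genes, was 18.5 and 15.0 FPKM at 0 h and 40.3 and 41.8 at 44 h, nearly equal in the 2 libraries. Its change of 1.251 (SE 0.19) did not pass over both (adjusted p = 0.0665) and passed with replicate 2 alone (adjusted p = 0.025). Cyp17a1, an enzyme of theca cells, was 2.28 and 9.29 FPKM and then 81.9 and 125, with an adjusted p of 0.0928 over both and 0.053 with replicate 2 alone. Hsd17b1, which makes estradiol from estrone, was 444 and 340.3 FPKM and then 621 and 689 and did not pass. Nr5a2 (LRH-1) was 21.3 and 19.3 FPKM at 0 h and 22.0 and 22.2 at 44 h, a change of 0.12 (SE 0.17). The widest split in the list was that of Akr1c18, which inactivates progesterone. It was 2.95 and 8.24 FPKM at 0 h and 1.31 and 155 at 44 h, below the 0 h range in replicate 1 and far above it in replicate 2.

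**Figure D3:**
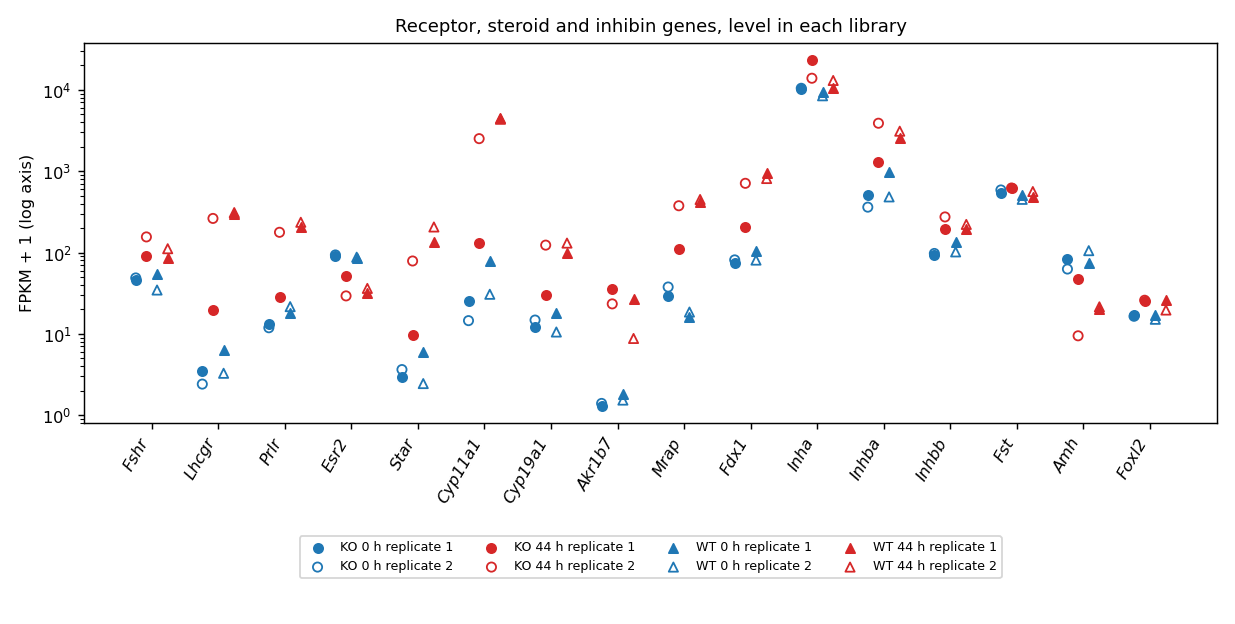
FPKM + 1 on a log axis in each library for receptor, steroid and inhibin genes, with circles for KO and triangles for WT, blue for 0 h, red for 44 h, filled for replicate 1 and open for replicate 2. For Lhcgr, Cyp11a1, Prlr and Star, KO 44 h replicate 1 lies between the 0 h libraries and the other 44 h libraries, whereas Foxl2 and Fst have nearly equal values in the 2 KO libraries at 44 h.

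Genes that supply cholesterol differed between the 2 KO libraries. Of 22 tested cholesterol synthesis genes, 18 rose with replicate 2 alone and none with replicate 1 alone or over both (21, 1 and 9 at an unadjusted p under 0.05), and 21 of 22 were higher in replicate 2 than in replicate 1 at 44 h, against 50.3% of all genes tested. The median change was 0.21 in replicate 1, 1.75 in replicate 2 and 1.08 in WT. With no filter on low values the count with replicate 2 was 8. Fdps, which makes farnesyl diphosphate, was 126 and 125 FPKM at 0 h and 159.8 and 586 at 44 h. Its change was 0.35 in replicate 1 (adjusted p = 0.224) and 2.21 in replicate 2 (adjusted p = 0.0013). Idi1, an isomerase of the same pathway, was 12.3 and 14.9 FPKM and then 20.1 and 79.1. Sc4mol, a sterol methyl oxidase, was 82.1 and 88.1 FPKM and then 107 and 327. An exception was Sc5d, a sterol desaturase, which was 37.7 and 55.7 FPKM at 0 h and 142 and 112 at 44 h, higher in replicate 1. In the fatty acid synthesis list, 10 of 14 rose with replicate 2 alone, none with replicate 1 alone (6 at an unadjusted p under 0.05), and the medians were 0.37 and 1.12. Fads2, a fatty acid desaturase, was 7.79 and 5.54 FPKM and then 18.4 and 59.7, and Elovl6, an elongase, 4.53 and 3.86 and then 9.69 and 38.7. The count of 10 was 6 without KO 0 h replicate 2 and 4 with no filter. For cholesterol uptake and trafficking, 5 of 14 rose with replicate 2 alone, and the count was 3 without KO 0 h replicate 1 or either WT 44 h library and 2 without KO 0 h replicate 2. Scarb1, the receptor for high-density lipoprotein, was 70.7 and 56.9 FPKM before and 141 and 279 after PMSG. Lrp8, a lipoprotein receptor, was 0.438 and 0.457 FPKM and then 4.56 and 3.24, higher in both libraries and slightly more so in replicate 1.

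The sequence just upstream of these genes was read to show what the data can be set against. RefSeq (GRCm38.p6) gave windows of 250 bases before the start of 13 of 20 tested steroid synthesis genes (17 windows). For cholesterol synthesis it gave 21 windows of 17 of 22 tested genes, and for FSH-induced genes 27 windows of 17 of 21. The build differs from the mm9 build of the files. Star and Sqle had no window and were not searched. Only the exact letters given for each motif were counted, so a variant of a motif was missed. The NR5A1 motif CAAGGTCA, searched on both strands, was in 1.33% of all 32851 windows, in none of the steroid synthesis windows, in 1 cholesterol synthesis window (Dhcr7) and in 2 windows of FSH-induced genes, both of Sgk1. The cAMP response element TGACGTCA was in 1.55% of all windows and in none of these 3 lists. A GATA motif (AGATAA or AGATAG or TGATAA or TGATAG on either strand) was in 26.5% of all windows, in 41.2% of the steroid synthesis windows, 9.52% of the cholesterol synthesis windows and 22.2% of those of FSH-induced genes. The AP-2 motif GCCNNNGGC was in 13.7% of all windows and in 0%, 23.8% and 18.5% of those of the 3 lists. A match is a description and not a site. Each window lies before a start of its gene. The windows of Sgk1 belong to different starts, and upstream and downstream name only their order on the chromosome. Sgk1 and Dhcr7 were chosen after their values were seen. Sgk1, a kinase induced by FSH, was 11.5 and 18.3 FPKM in KO at 0 h and 19.9 and 189.9 at 44 h. Dhcr7, which makes cholesterol in the last step of its pathway, was 12.4 and 10.1 FPKM and then 14.0 and 80.3. Both were near the 0 h level in replicate 1 and rose in replicate 2 (adjusted p = 0.00179 and 0.00152). The windows are shown 5′ to 3′ on the + strand with the motif in capitals: for Sgk1 chr10:21978422-21978671, where it is the reverse complement and lies 63 to 56 bases before the start, and chr10:21985854-21986103, where it lies 103 to 96 bases before the start, and for Dhcr7 chr7:143822917-143823166, where it lies 52 to 45 bases before the start.
Sgk1 upstream window: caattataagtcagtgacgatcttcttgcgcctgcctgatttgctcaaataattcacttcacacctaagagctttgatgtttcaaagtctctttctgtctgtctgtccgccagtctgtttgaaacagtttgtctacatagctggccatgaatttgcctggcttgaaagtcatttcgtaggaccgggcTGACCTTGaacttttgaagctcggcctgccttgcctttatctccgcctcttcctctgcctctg
Sgk1 downstream window: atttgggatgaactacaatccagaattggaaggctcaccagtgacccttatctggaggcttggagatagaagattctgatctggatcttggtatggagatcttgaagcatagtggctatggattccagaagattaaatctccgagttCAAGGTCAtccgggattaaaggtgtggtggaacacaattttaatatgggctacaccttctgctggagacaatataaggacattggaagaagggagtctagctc
Dhcr7 window: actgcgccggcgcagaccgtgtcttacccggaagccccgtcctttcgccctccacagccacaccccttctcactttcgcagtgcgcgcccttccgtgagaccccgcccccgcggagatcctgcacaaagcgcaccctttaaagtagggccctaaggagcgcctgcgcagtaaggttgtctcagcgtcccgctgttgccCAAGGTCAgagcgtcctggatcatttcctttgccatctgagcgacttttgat

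Inhibin and activin genes are the peptide hormone products of granulosa cells. Inha, the alpha subunit of inhibin and an abundant mRNA of these cells, was 10254 and 10433 FPKM in KO at 0 h and 23238 and 13862 at 44 h. Both 44 h libraries were higher, replicate 1 the most, with a change of 0.80 over both (SE 0.34, adjusted p = 0.223). Inhba, the beta A subunit shared by inhibin and activin, was 512 and 360.1 FPKM at 0 h and 1300.2 and 3879 at 44 h and rose with replicate 2 alone by 3.17 (SE 0.41, adjusted p = 0.00884). Inhbb, the beta B subunit, was 91.3 and 96.4 FPKM and then 194 and 273, with a change of 1.28 over both (SE 0.21, adjusted p = 0.067). The activin-binding protein Fst was 537 and 586 FPKM and then 626 and 619.7, a change of 0.15 (SE 0.16). Amh, which restrains follicle recruitment and is made by small growing follicles, was 81.3 and 61.6 FPKM at 0 h and 46.4 and 8.47 at 44 h. Both 44 h values were lower, and the fall passed with replicate 2 alone (-2.92, SE 0.26, adjusted p = 0.0033) and not with replicate 1 alone (-0.60, adjusted p = 0.233). Its receptor Amhr2 was 255 and 199 FPKM and then 168 and 124 and did not pass. Of the whole list of 11 tested members, Inhba and Inhbb rose and Amh and Acvr2b fell in replicate 2, where 1 fell when any single KO 0 h or WT library was left out.

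Of 21 tested members of the list of FSH-induced genes, 11 rose with replicate 2 alone and none with replicate 1 alone or over both (14, 12 and 13 at an unadjusted p under 0.05), and 17 of 21 had both 44 h libraries above both 0 h libraries. Such a separation upwards was found at 14.3% of all genes tested. The median change of the list was 0.67 in replicate 1, 1.53 in replicate 2 and 0.84 in WT. The count of 11 was 7 without KO 0 h replicate 2 and 3 with no filter on low values. Greb1, an estrogen-induced gene, was 17.1 and 17.7 FPKM at 0 h and 39.6 and 59.0 at 44 h, a change of 1.42 over both (SE 0.25, adjusted p = 0.0757). Igfbp5, a binding protein of insulin-like growth factors, was 8.82 and 6.38 FPKM and then 10.6 and 24.8, and passed with replicate 2 alone (adjusted p = 0.0499). Cited4, a transcriptional co-regulator chosen after its values were seen, was 20.5 and 14.0 FPKM at 0 h and 13.9 and 264 at 44 h. Genes of the late follicle and corpus luteum also gave a wide gap. Of 16 tested, 12 rose with replicate 2 alone and 1, Akr1b7, with replicate 1 alone, and the medians were 0.50 and 2.59. Sfrp4, a secreted WNT antagonist, was 0.409 and 1.76 FPKM at 0 h and 13.7 and 598 at 44 h. Both 44 h libraries were higher than both 0 h libraries, and the change of 8.25 with replicate 2 alone (SE 0.66, adjusted p = 0.00218) was the largest rise that the naming rule took from that library.

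Other genes that rose in replicate 2 included secreted and metabolic products. Spp1 (osteopontin), a secreted phosphoprotein, was 294 and 91.7 FPKM at 0 h and 75.3 and 4219 at 44 h, below both 0 h libraries in replicate 1 and above both in replicate 2 (4.67, SE 1.05, adjusted p = 0.0406). Lipg, an endothelial lipase, was 0.509 and 0.139 FPKM and then 1.22 and 46.7. Tinagl1, a matrix protein, was 6.35 and 1.80 FPKM and then 2.54 and 104. S100a4, a calcium-binding protein, was 2.15 and 0.563 FPKM and then 2.42 and 48.4. For Lipg, Tinagl1 and S100a4 the value of replicate 2 stood far above the other 3 KO libraries. Among abundant genes with that pattern, Idh1, an isocitrate dehydrogenase that makes NADPH, was 114 and 132 FPKM at 0 h and 138 and 1503 at 44 h, and Anxa2, a membrane-binding annexin, was 129 and 102 and then 118 and 557. Lgmn, a lysosomal protease, was 139.9 and 52.8 FPKM and then 87.8 and 549. Genes that fell in replicate 2 and not in replicate 1 included the apolipoproteins Apoa1 and Apoa4. Apoa1 was 846 and 590.0 FPKM at 0 h and 794 and 86.9 at 44 h, and Apoa4 was 675 and 852 and then 611 and 212. Rgs2, a regulator of G protein signalling, was 370.3 and 341 FPKM at 0 h and 368 and 159.7 at 44 h (-1.15 in replicate 2, adjusted p = 0.00885).

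Several genes fell strongly in replicate 2 with a smaller difference in replicate 1. Wfdc10, a whey acidic protein family member, was 409 and 457 FPKM at 0 h and 217 and 32.4 at 44 h, and fell by 3.70 in replicate 2 (SE 0.17, adjusted p = 0.000374). Kazald1, an insulin-like growth factor binding protein relative, was 418 and 491 FPKM and then 127 and 47.1. Nos2, the inducible nitric oxide synthase, was 26.5 and 22.8 FPKM and then 4.40 and 2.2, and its adjusted p over both libraries was just above the threshold. Gulo, the last enzyme of vitamin C synthesis, was 56.5 and 46.7 FPKM and then 12.5 and 4.50, and Col9a2, a collagen chain, 19.3 and 9.54 and then 3.59 and 0.275. All of these had both 44 h libraries below both 0 h libraries.

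Glycolysis genes differed between the KO libraries. Of 19 tested glycolysis genes, 10 rose and 1 fell with replicate 2 alone and none passed with replicate 1 alone, where 4 were lower at an unadjusted p under 0.05. The median change was 0.95 in replicate 2 and -0.11 in replicate 1, the latter 0.07 after median-of-ratios scaling and -0.25 after quantile normalization. At 44 h, 18 of 19 were higher in replicate 2 than in replicate 1, against 50.3% of all genes tested. The count of genes that rose was 6 without KO 0 h replicate 1, 3 without KO 0 h replicate 2 and 3 with the KO libraries alone. Eno1, an enolase, was 562 and 572 FPKM at 0 h and 526 and 1292 at 44 h. Pgk1, a phosphoglycerate kinase, was 138 and 144 FPKM and then 147 and 316. Slc16a3, a lactate exporter, was 11.4 and 6.86 FPKM and then 12.3 and 59.0. Ldhb, the lactate dehydrogenase subunit of oxidative tissues, moved the other way, from 2580.3 and 2400.0 FPKM to 1371 and 881, and fell with replicate 2 alone (-1.50, adjusted p = 0.0114). Oxidative phosphorylation subunits showed small differences. None of 75 passed in limma over both libraries or with either alone (9, 27 and 2 were higher at an unadjusted p under 0.05, in the order both, replicate 1, replicate 2), while 46 of 75 had both 44 h libraries above both 0 h libraries, and the median change was 0.41 in replicate 1, 0.12 in replicate 2 and 0.23 in WT. Of all genes tested, 14.3% had both 44 h libraries above both 0 h libraries. After quantile normalization the medians of these subunits in the 2 KO libraries were nearly equal, 0.18 and 0.15. Uqcrfs1, the Rieske protein of complex III, was 151 and 168 FPKM and then 242 and 205.

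**Figure D4:**
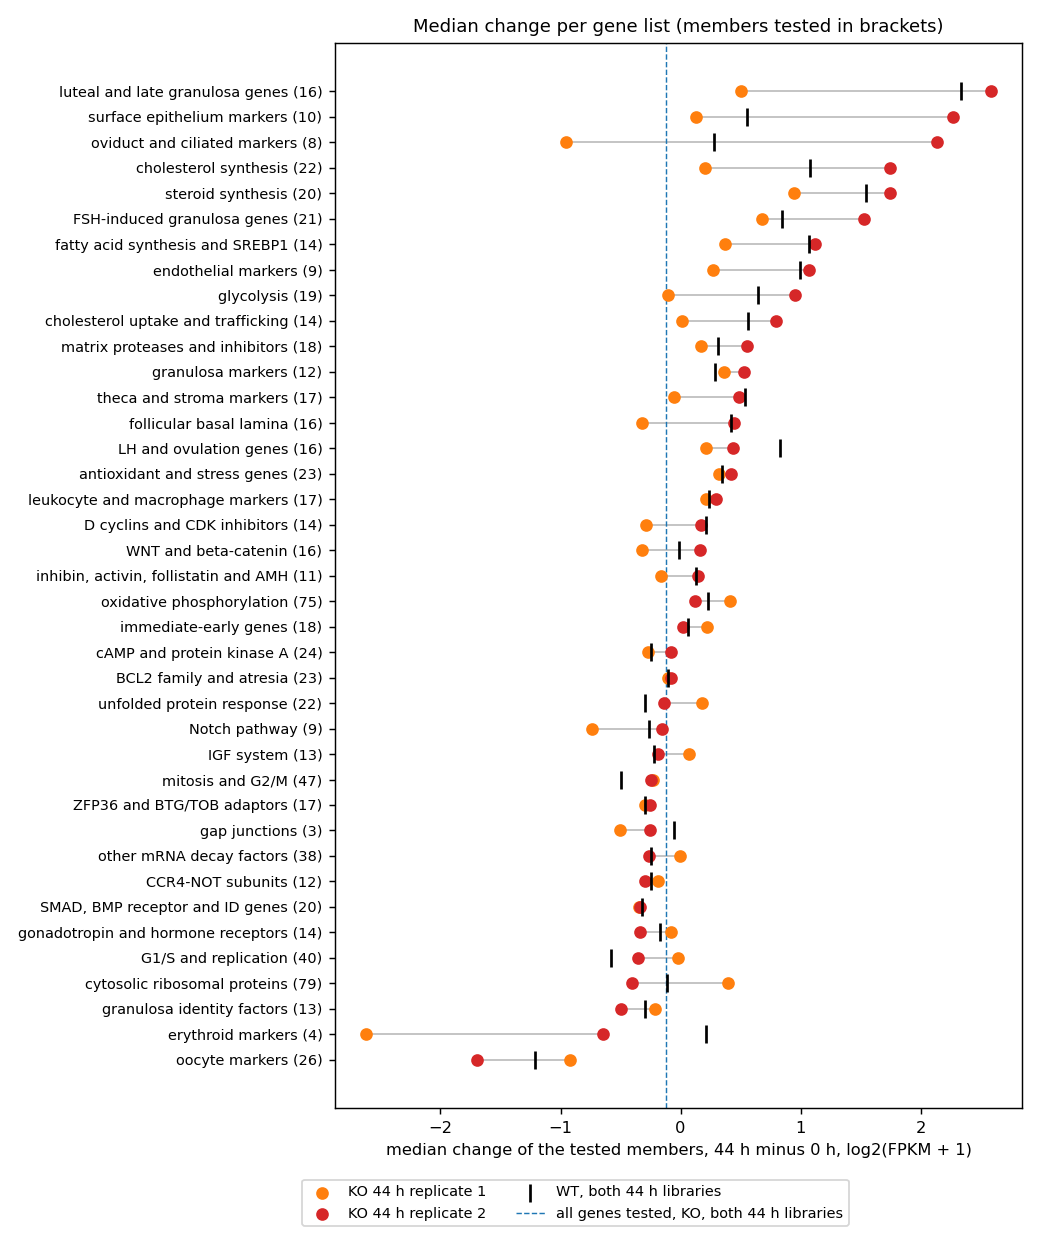
Median change (44 h minus 0 h, log2(FPKM + 1)) of the tested members of each of 39 gene lists, for KO 44 h replicate 1 (orange), KO 44 h replicate 2 (red) and WT (black bar), with the median of all genes tested in KO (-0.12) as a dashed line. In replicate 2 the luteal list lies furthest to the right, followed by surface epithelium and oviduct markers and by cholesterol and steroid synthesis, and oocyte markers lie lowest; in replicate 1 erythroid markers lie lowest.

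KO 44 h replicate 1 stood apart from replicate 2 at a further set of genes, for some of them in size and not in direction. Sectm1b, a secreted and transmembrane protein, was 2.36 and 0.706 FPKM at 0 h and 181 and 5.66 at 44 h. Replicate 1 was far above every other library, and the change was 6.25 there (SE 0.54, adjusted p = 0.0114). The related Sectm1a was 1.29 and 0.766 FPKM and then 7.31 and 1.08. Amd1, which makes the aminopropyl donor for polyamines, was 39.4 and 50.2 FPKM at 0 h and 0.154 and 23.4 at 44 h, a change of -5.30 in replicate 1 (SE 0.35, adjusted p = 0.00286). Slc38a1, a glutamine transporter, was 16.9 and 21.0 FPKM at 0 h and 1.65 and 19.1 at 44 h. Both were far lower in replicate 1 than in the other 3 KO libraries. Angptl4, an inhibitor of lipoprotein lipase, was 51.9 and 49.6 FPKM and then 14.1 and 60.2. Akr1c21, a steroid dehydrogenase, was 4.42 and 6.78 FPKM at 0 h, listed at 0 in replicate 1 and 1.64 in replicate 2. Spin2 was 98.8 and 142 FPKM and then 465 and 213, and Snhg3, a host gene of small nucleolar RNAs, 34.4 and 34.9 and then 135 and 50.7 (replicate 1, 1.93, SE 0.19, adjusted p = 0.0189). Kiss1, which encodes kisspeptin, was listed at 0 in both KO libraries at 0 h and was 5.43 and 1.52 FPKM at 44 h.

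The cold-inducible RNA-binding proteins Rbm3 and Cirbp belonged to the genes that were higher in replicate 1 and near the 0 h level in replicate 2. Rbm3 was 223 and 267 FPKM at 0 h and 696 and 280.4 at 44 h, and Cirbp 146 and 89.5 and then 424 and 114, neither with an adjusted p under 0.05 in replicate 1 (0.0776 and 0.0817). Cytosolic ribosomal protein genes split the 2 libraries as a block of small changes. Of 79 tested, 78 were higher than the 0 h mean in replicate 1, against 35.8% of all genes tested. In replicate 2, 78 of 79 were lower, against 59.0%. The medians of these 79 genes were 0.40 and -0.40, and 1 of 79 was higher in replicate 2 than in replicate 1. After quantile normalization 67 were higher in replicate 1 and 1 in replicate 2, and after median-of-ratios scaling 78 and 5. Their summed FPKM was 59400 and 58581 in KO at 0 h and 78218 and 45015 at 44 h. With replicate 2 alone 4 of 79 fell, near the 5.23% of all genes (Rpl5, Rpl32, Rpl34 and Rpl36a; none without KO 0 h replicate 1 or replicate 2), and with replicate 1 alone none passed, where 37 were higher at an unadjusted p under 0.05.

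The difference between the KO and WT changes was tested in the same fit. Over both KO libraries 3 genes (0.0228%) passed, 2 (0.0152%) with a higher and 1 (0.00761%) with a lower change in KO, all short RNA genes: Mir19b-1, Mir686 and Mir763. At an unadjusted p under 0.05 the number was 246. With KO replicate 1 alone 68 genes (0.518%) passed, 6 (0.0457%) with a higher and 62 (0.472%) with a lower change than in WT, and with replicate 2 alone 6 (0.0457%) passed, 4 (0.0304%) higher and 2 (0.0152%) lower. The 68 were 26 without KO 0 h replicate 1, 28 or 30 without a WT 0 h library, 2 without WT 44 h replicate 1 and 32 without WT 44 h replicate 2. List members with a smaller change in replicate 1 than in WT included Prlr, Fdx1, Mrap, Akr1c18, Dhcr7 and Sgk1. The difference for Prlr was -2.30 (adjusted p = 0.0217), for Fdx1 -1.87 (adjusted p = 0.0408) and for Mrap -2.90 (adjusted p = 0.0173). Akr1c18 differed by -5.38 (adjusted p = 0.0408). Lhcgr, Star and Cyp11a1 had differences of -3.30, -3.87 and -3.71 in replicate 1 and did not pass (adjusted p = 0.0569, 0.079 and 0.0961). In replicate 2 the differences from WT for Lhcgr, Cyp11a1 and Prlr were 0.42, 0.56 and 0.36, each with an adjusted p of 1.00, which does not show that the changes were equal.

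Further genes, in and outside the lists, also differed from WT in replicate 1. Bhmt, a methyltransferase of homocysteine, was 0.808 and 1.16 FPKM in KO at 0 h and 0.935 and 54.2 at 44 h, against 107 and 114 in WT at 44 h, a difference of -5.17 (adjusted p = 0.0205). Ppp1r14a, an inhibitor of myosin phosphatase, was 7.04 and 3.30 FPKM and then 19.2 and 142, against 305 and 355 in WT at 44 h (-4.20, adjusted p = 0.0217). Oxtr, the oxytocin receptor, chosen after its values were seen, was 0.782 and 0.819 FPKM and then 1.96 and 16 (difference -3.05, adjusted p = 0.0239). Dusp1, a MAP kinase phosphatase, was 28.8 and 21.1 FPKM and then 22.7 and 79.2, and differed by -2.55 (adjusted p = 0.0294). Each of these was low in replicate 1 and higher in replicate 2. The opposite sign was found for Sectm1b (6.09, adjusted p = 0.0239), Kiss1 (3.31, adjusted p = 0.031) and Rpl26 (1.99, adjusted p = 0.0334). Rpl26, a ribosomal protein of the large subunit, was 99.9 and 106 FPKM in KO at 0 h and 229 and 136 at 44 h, and 196, 217, 99.1 and 131 in the WT libraries, so that the level at 44 h was higher in KO and lower in WT. In replicate 2, Cidea, a lipid droplet protein chosen after its values were seen, was 1.24 and 0.692 FPKM at 0 h and 0.165 and 24.3 at 44 h, and was at most 1.46 in WT (difference 3.70, adjusted p = 0.0377).

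Genes of matrix, growth factor and transcription factor lists changed in few members. In the list of the follicular basal lamina, 15 of 16 members were lower in replicate 1, where 64.2% of all genes were lower (median -0.32; 12 of 16 after median-of-ratios scaling, and 9 of 16 with a median of -0.14 without KO 0 h replicate 1) and 6 of 16 in replicate 2 (median 0.44). Lama1, a laminin chain, fell in each KO library alone: it was 22.1 and 21.7 FPKM at 0 h and 4.42 and 8.33 at 44 h (adjusted p = 0.0322 and 0.0266). Neither call for Lama1 held without KO 0 h replicate 1, KO 0 h replicate 2 or either WT 44 h library. Sparc, a secreted matrix protein chosen after its values were seen, was 138 and 95.6 FPKM and then 107 and 409. Among proteases and their inhibitors, Ctsl, a lysosomal cathepsin, was 1242 and 951 FPKM and then 3481 and 1536, and rose with replicate 1 alone (adjusted p = 0.0344), a call that was lost whichever of the other 6 libraries was left out. Cst8, a cystatin, was 21.6 and 17.5 FPKM and then 72.2 and 117. Plat, tissue plasminogen activator, was 494 and 377 FPKM and then 188 and 203, lower in both libraries without passing (adjusted p = 0.0988). In the IGF list, 3 rose and 3 fell with replicate 2 alone (without KO 0 h replicate 1, 1 and 1; without replicate 2, 1 and 0), among them Igfbp4, which went from 30.7 and 46.9 to 13.6 and 16.1 FPKM (adjusted p = 0.0496). Id1, a target of BMP signalling, was 18.4 and 14.8 FPKM and then 42.1 and 75.5 (adjusted p = 0.00467 in replicate 2), and Id3 307 and 405 and then 1096 and 583. Of the Notch list, Heyl fell with replicate 2 alone, from 22.1 and 34.2 to 12 and 9.34 FPKM, and Hey1 was 6.39 and 6.10 and then 1.19 and 2.35 (adjusted p = 0.0801 over both). Foxl2, a transcription factor of granulosa identity, was 15.9 and 15.5 FPKM and then 24.4 and 24.9, and Gata4 28.2 and 17.4 and then 46.6 and 49.2. Both were higher at 44 h in both libraries and neither passed. The connexin Gja1, which couples granulosa cells, was 2789.9 and 3042 FPKM and then 3601 and 3982.

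Cell cycle genes differed by small amounts. With replicate 2 alone few of them fell, near the 5.23% of all genes tested. Of 47 tested genes of mitosis and G2/M, 27 had both 44 h libraries below both 0 h libraries and 4 above, against 34.9% and 14.3% of all genes tested, and the median change was -0.24 against -0.12 for all genes, or -0.09 against 0.02 after median-of-ratios scaling. With replicate 2 alone 1 passed, Pttg1 (securin), which was 583 and 525 FPKM at 0 h and 370.2 and 264 at 44 h (adjusted p = 0.0193), and none passed without KO 0 h replicate 1 or without KO 0 h replicate 2. Of 40 genes of G1/S and replication, Uhrf1, Orc1 and Ung fell with replicate 2 alone, and none passed without KO 0 h replicate 1 or without KO 0 h replicate 2. The median of the G1/S and replication list was -0.36 in replicate 2, and in replicate 1 it was -0.02 and turned to 0.16 after median-of-ratios scaling. Uhrf1, which keeps DNA methylation at replication, was 101 and 75.3 FPKM and then 48.8 and 33.8. Ccnd2, the D cyclin of granulosa cells, was 130.1 and 172 FPKM and then 290.4 and 163, above the 0 h range in replicate 1 only, and did not pass (adjusted p = 0.346 over both).

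The mRNA decay machinery was itself in the table. Its falls with replicate 2 alone are to be read beside the 5.23% of all genes tested that fell there. None of 12 CCR4-NOT subunits passed in limma over both libraries or with either alone, and 1 was higher and 1 lower over both at an unadjusted p under 0.05. The median change was -0.24. Cnot4 was 18.5 and 20.2 FPKM at 0 h and 12.9 and 13.0 at 44 h (-0.54, SE 0.17, adjusted p = 0.138), the smallest p of the list. Cnot8, a deadenylase of the other family in the complex, was 103 and 119 FPKM and then 97.1 and 93.1. Of 17 RNA-binding adaptors and BTG/TOB proteins, 1 rose and 3 fell with replicate 2 alone, and none fell without KO 0 h replicate 1, KO 0 h replicate 2 or either WT 44 h library. Btg2, an antiproliferative adaptor, was 16.6 and 11.3 FPKM and then 22.6 and 37.1. Btg4 and Cpeb1, both abundant in oocytes, were 420.2 and 403 and then 277 and 149, and 136 and 115 and then 56.8 and 39.9. Summed oocyte markers were lower at 44 h in both libraries, 4875 and 2908 FPKM against 10122 and 8734, and their part in these values was not tested. Of 38 other decay factors, 1 fell, Pabpc4, from 18.4 and 17.7 to 10.4 and 7.29 FPKM (adjusted p = 0.0448 in replicate 2), and none fell when a KO 0 h or WT 44 h library was left out.

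All 26 tested oocyte markers had both KO 44 h libraries below both 0 h libraries, and 23 fell with replicate 2 alone. Both 44 h libraries lay below both 0 h libraries at 34.9% of all genes tested. The medians of the oocyte markers were -0.92 in replicate 1, -1.70 in replicate 2 and -1.21 in WT. The count is not stable: 5 passed when KO 0 h replicate 1 or replicate 2 was left out, 8 or 7 when a WT 44 h library was, and 0 with no filter on low values. Zp1, a protein of the zona pellucida, was 264 and 232 FPKM at 0 h and 107 and 62.6 at 44 h. Ddx4, the germ cell helicase VASA, was 13.3 and 18.4 FPKM and then 3.87 and 3.10. Nlrp14, a maternal-effect gene, was 561 and 542 FPKM and then 234 and 160.3.

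Markers of other cells were read for each library. Ovarian surface epithelium markers summed to 154 and 120 FPKM in KO at 0 h and to 146 and 476 at 44 h, and 8 of 10 rose with replicate 2 alone (4 without KO 0 h replicate 2). Krt19, a keratin, was 8.76 and 2.49 FPKM and then 8.41 and 78.0, and Upk1b, a uroplakin, 6.95 and 6.05 and then 8.06 and 44.6. Oviduct and ciliated markers summed to 132 and 60.6 FPKM and then to 32.7 and 493, of which Ovgp1, the oviductal glycoprotein, gave 61.2, 5.94, 3.04 and 279. In WT, Ovgp1 was 366 FPKM in 44 h replicate 1 and 6.05 in replicate 2, so it varied between libraries of either genotype. Endothelial markers summed to 44.7 and 34.2 FPKM and then 43.9 and 87.0, and theca and stroma markers to 185 and 131 and then 281 and 404. Among the 4 KO libraries, the summed FPKM of the steroid synthesis, cholesterol synthesis and luteal lists was also highest in 44 h replicate 2. It was higher still in both WT libraries at 44 h, and the part of these other cells in the sums was not tested. The steroid synthesis and luteal lists share members, so their sums in 44 h replicate 2, 14477 and 12249 FPKM, are not independent. The same highest value, 7242 FPKM, stands in both. Leukocyte markers summed to 1190 and 221 FPKM at 0 h and 591 and 638 at 44 h, and erythroid markers to 954 and 108 and then 40.2 and 189. For Hba-a2, an alpha globin, the 4 KO values were 734, 85.4, 32.5 and 155 FPKM, with no order between the groups. The immediate-early genes, which respond to handling of tissue, gave a median change of 0.22 in replicate 1 and 0.02 in replicate 2 (0.50 and 0.46 without KO 0 h replicate 1, -0.15 and -0.24 without KO 0 h replicate 2), and Zfp36, a member of that list, was 12.5 and 3.51 FPKM and then 26.4 and 12.9.

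**Figure D5:**
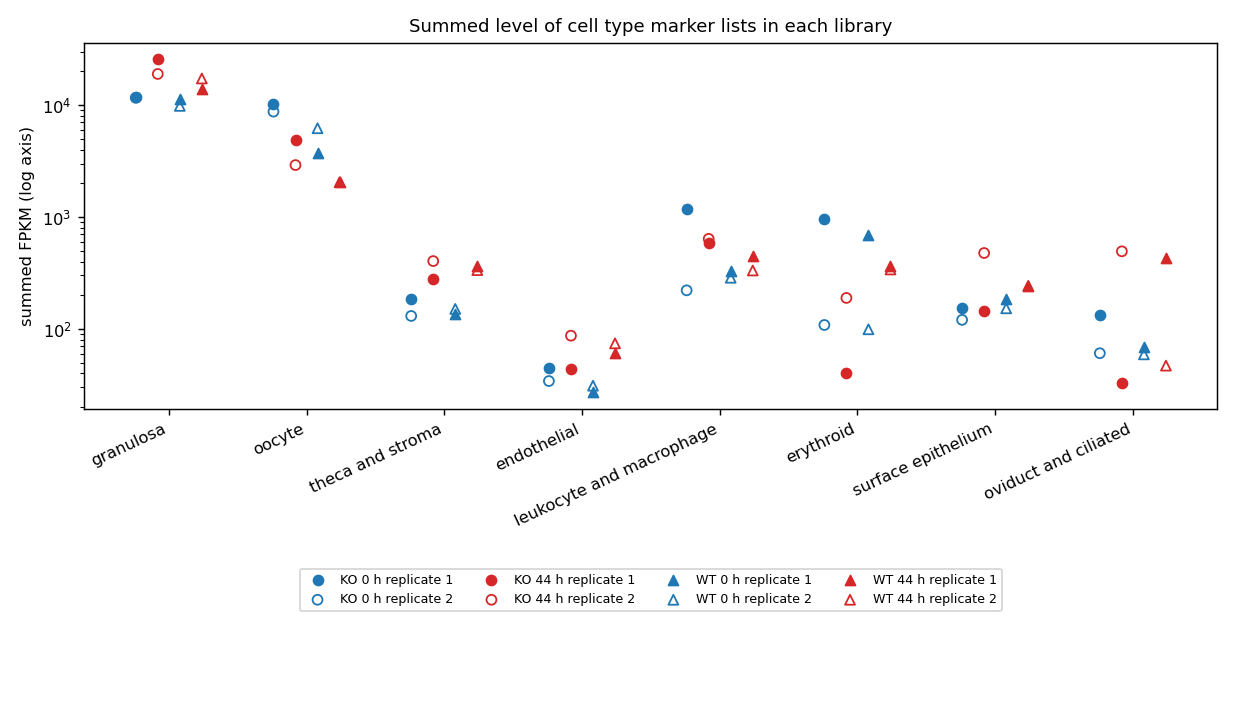
Summed FPKM of each list of cell type markers in each library, on a log axis, with circles for KO, triangles for WT, blue for 0 h, red for 44 h, filled for replicate 1 and open for replicate 2. The surface epithelium and oviduct sums of KO 44 h replicate 2 (476 and 493 FPKM) stand above the other KO libraries, and oocyte sums are lower at 44 h than at 0 h in both genotypes.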

How the data were processed

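RNA was measured in 8 libraries of mouse granulosa cells (WT and KO, 0 h and 44 h after PMSG, n = 2 each). All values come from the FPKM table that the authors deposited, whose unit is stated per the file headers. The submitters' processing notes name Cufflinks 2.2.1, TopHat2 2.1.1 and mm9 without saying what each did; annotation and filters were not stated. FPKM are not counts, so no count test was run, and a listed 0 can be a missing estimate. Relative depth was read from the steps between low FPKM values. No column of the table was without a sample (0 columns).

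Genes with at least 1 FPKM in at least 2 of the 4 KO libraries were kept. Changes are differences of log2(FPKM + 1), which understate those of low genes. limma 3.58.1 (R 4.3.3) fitted the 4 group means, with empirical Bayes moderation, a trend and 4 residual degrees of freedom. Tests were two-sided, with Benjamini-Hochberg adjustment over all 13138 genes, and an adjusted p under 0.05 was the threshold. Fits of 1 KO 44 h library used 7 libraries. SE is that of limma. KO and WT changes were compared by an interaction contrast. The fit of all 8 libraries was run on simulated data in which every library had the same spread, unlike the KO 44 h pair. The fits of 1 KO 44 h library were not tested in that way.

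The members, the 39 gene lists (753 distinct genes tested, some in several lists) and the tests were chosen with earlier results of these data known. Named genes were, in each fit, at most 12 per direction that passed, had a mean of at least 5 FPKM in KO at 0 h or 44 h, showed no overlap of the KO groups and bore no clone, predicted-gene or short-RNA symbol. Also named were, per list, at most 6 members by p over both libraries, a set of granulosa genes, and the 8 highest genes of each pattern seen in 1 KO library and not in the other. Genes behind a count of 5 or fewer, and those marked so, were chosen after their values were seen. Groups share replicate numbers, but the labels state no pairing, so the block is an alternative. Other alternatives were 2 scalings, a pseudocount of 0.1, 3 filters, robust empirical Bayes, the KO libraries alone and leaving out each library. Promoter windows were from RefSeq (GRCm38.p6).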

Additional observations from a re-analysis of the deposited data

Results flagged for a closer look

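The values here are the KO change minus the WT change (log2(FPKM + 1), limma interaction contrast with Benjamini-Hochberg adjustment), and each was listed because this difference passed an adjusted p of 0.05, apart from Rpl30, given last, whose KO and WT libraries moved opposite ways. Over both KO 44 h libraries these were the short RNA genes Mir19b-1 (7.24), Mir686 (7.001) and Mir763 (-5.67). With KO 44 h replicate 2 alone they were Mir19b-1 (8.08), Mir686 (6.74), Mir763 (-5.67), Snord35b (6.74), the lipid droplet gene Cidea (3.70) and the small nucleolar RNA Snora7a (-4.01). Snora7a, chosen after its values were seen, was 74.0 and 93.0 FPKM in KO at 0 h and 59.2 and 11.8 at 44 h.

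With KO 44 h replicate 1 alone the difference was positive for Mir19b-1 (6.41), Mir686 (7.26), Snord35b (8.63), Sectm1b (6.09), Kiss1 (3.31) and Rpl26 (1.99). It was negative for Mir763 (-5.67) and the histone gene Hist2h2ab (-2.30). Of genes for steroid and lipid supply it was negative for Fdx1 (-1.87), Mrap (-2.90), Akr1c18 (-5.38), Dhcr7 (-1.86), Idh1 (-2.61), Angptl4 (-2.79) and Lipg (-3.60). Of receptor and signalling genes it was negative for Prlr (-2.30), Sgk1 (-3.29), Cited4 (-3.93), Oxtr (-3.055), Dusp1 (-2.55) and Ppp1r14a (-4.20). It was also negative for Sparc (-2.31), Amd1 (-5.05), the transporter Slc38a1 (-2.90) and the methyltransferase Bhmt (-5.17). For the ribosomal protein gene Rpl30, the KO libraries at 44 h were both below the 0 h mean and the WT libraries both above it, a difference of -0.45 that did not pass the test.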

How the results depend on the processing

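With 2 libraries a group and 2 KO 44 h libraries far apart, single-library counts rest on the spread of the other groups. Counts given as "both", "replicate 1" and "replicate 2" are of genes that passed, from 27, 44 and 1263. With no filter they were 45, 389 and 622, and with the KO libraries alone 11, 16 and 561. Robust empirical Bayes gave 52 for both and 158 for replicate 1. Quantile normalization gave 68 and median-of-ratios scaling 103 for replicate 1. Leaving out each library gave 5 to 1263, 13 to 84 and 372 to 1334. The labels state no pairing, and deviations of same-numbered KO libraries correlated at -0.14; a replicate block gave 7 genes over both libraries, 7 of them among the 27, and the crossed pairing, added after seeing the data, 35, with 24 of the 27. For the difference from WT (3, 68 and 6 genes), no filter gave 41, 374 and 252, the filter over all 8 libraries 6 for both and 11 for replicate 2, and a pseudocount of 0.1 gave 5 for both. For replicate 1 it was 104 with median-of-ratios scaling, 43 with an FPKM of at least 5 and 115 with robust empirical Bayes. Leaving out each library gave 1 to 68, 2 to 48 and 2 to 11.

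Genes at least 2-fold beyond both 0 h libraries numbered, above and below, 201 and 297 in replicate 1, 597 and 774 in replicate 2, and 94 and 138 in both. Quantile normalization gave 305 and 192 in replicate 1, 705 and 680 in replicate 2, and 139 and 99 in both. Median-of-ratios scaling gave 298 and 189 in replicate 1, 715 and 582 in replicate 2, and 132 and 79 in both. With either scaling more genes thus lay above than below, the reverse of the counts without it. A pseudocount of 0.1 gave 731 below in replicate 1, 1216 below in replicate 2, and 157 and 290 in both. An FPKM of at least 5 gave 333 above in replicate 2. No filter gave 252 above in replicate 1 and 812 above in replicate 2, and left the numbers below and in both unchanged. Leaving out a KO 0 h library gave 302 to 417 above and 497 to 878 below in replicate 1, 695 to 1007 above and 963 to 1334 below in replicate 2, and 136 to 240 above and 227 to 435 below in both. Of the named genes, 5 that passed in no fit changed sign when a library was left out, with ranges over the left-out libraries of -2.36 to 3.75 for Ovgp1, -0.63 to 1.61 for C1qa, -2.64 to 0.082 for Alas2, -0.13 to 0.64 for Rpl38 and -0.60 to 0.096 for Rps4x. None of the 27 genes changed sign under these alternatives. The cause of these shifts was not tested.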

Other observations

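Other gene groups had few members that passed. At 14.3% of all genes tested, both KO 44 h libraries lay above both 0 h libraries. Of 23 tested antioxidant and stress genes, 13 had both 44 h libraries above both 0 h libraries, and 4 rose and 1 fell with replicate 2 alone (2 rose without KO 0 h replicate 1 or replicate 2, and 1 without either WT 44 h library). The glutathione transferase Gsta4 was 98.2 and 66.3 FPKM at 0 h and 227 and 355 at 44 h, and the metallothionein Mt2 was 38.6 and 19.1 and then 67.4 and 139.6. Both rose with replicate 2 alone (limma adjusted p = 0.0266 and 0.0189). Srxn1, which repairs oxidized peroxiredoxins, was 1.33 and 1.61 FPKM and then 4.10 and 6.62. Of 16 tested genes linked to LH and ovulation, 3 rose and 1 fell with replicate 2 alone, and none rose without KO 0 h replicate 1 or without KO 0 h replicate 2. Sult1e1, the estrogen sulfotransferase, rose in each KO library alone: it was 0 and 0.236 FPKM at 0 h and was 6.76 and 1.38 at 44 h (adjusted p = 0.0118 and 0.0389). Vcan, a proteoglycan of the expanding cumulus, was 6.15 and 4.7 FPKM and then 7.55 and 16.7 (adjusted p = 0.028 in replicate 2), and Runx1, a transcription factor, was 11.0 and 16.9 and then 3.99 and 4.31 without passing.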
